A study of Mus musculus with 4 samples.

Results

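Gene expression in cells of the prefrontal cortex (PFC) was compared between postnatal day 10 (P10) and adult (P84) within 6 broad cell classes: excitatory neurons, inhibitory neurons, astrocytes, oligodendrocytes, oligodendrocyte precursors and microglia. The members are cells with at least 1000 unique molecular identifiers (UMIs, each a counted RNA molecule), at least 1000 genes and at most 15% of UMIs from mitochondrial genes, in clusters that could be named for 1 of the classes. They number 25686 of the 29359 cells that passed this filter at both ages (13225 of 15272 at P10 and 12461 of 14087 in adult), and the whole series holds 59918 such cells at 4 ages. All mice were female, of the strain C57BL/6 in the labels and C57BL/6J in the study's text, without any genetic change or drug named in the labels, and the methods state that PFC slices of both ages were kept in actinomycin D, an inhibitor of transcription, before digestion with protease XXIII and papain. Anesthesia was on ice, per the methods. The methods give 2 mice per age and the files hold 1 BD Rhapsody whole transcriptome library per age, and which cell came from which mouse is not used here. With 1 library per age there is no replicate check of any difference, no test was made, and age cannot be told apart from library or dissection. Genes are counted by the size of their ratio, and every interval is a 95% interval that covers counting error only.

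At P10, cortical neurons are still extending axons and dendrites with a cytoskeleton of growth-type tubulins, stathmins and collapsin response mediator proteins, and these give way to channels, receptors and synaptic proteins as circuits mature. Astrocytes and oligodendrocyte precursors leave a phase of division, oligodendrocytes wrap axons in a myelin membrane that is rich in cholesterol, and microglia, the resident macrophages of the brain, divide and clear debris before they settle into surveillance. Some of these programs run in 1 cell class and others, such as sterol synthesis, can run in every cell, so each gene was followed in all 6 classes.

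Levels are given in CPM, the usual scale of counts relative to a total, here the UMIs of a gene summed over the cells of a class, relative to all UMIs of that class without mitochondrial and ribosomal protein genes. The libraries held 287594712 UMIs at P10 and 200198548 in adult, and the median UMIs per cell differed between classes and ages, from 24003.5 at P10 and 18555 in adult in excitatory-like cells to 4236.5 and 3193 in astrocyte-like cells. Defining markers separated the classes, with Slc17a7 at 1193 and 2117 CPM in excitatory-like cells, Gad1 at 1418 and 3375 CPM in inhibitory-like cells, Aqp4 at 2601 and 1290 CPM in astrocyte-like cells, Mog at 601 and 1280.0 CPM in oligodendrocyte-like cells, Pdgfra at 5966 and 3921 CPM in precursor-like cells and Csf1r at 4111 and 5092 CPM in microglia-like cells, at P10 and in adult. These markers named the classes and are no result. Markers of excitatory neurons were read in every other class. At P10 they stood in the other classes at 11.8% (oligodendrocyte-like) to 15.2% (microglia-like) of their level in excitatory-like cells, and in adult at 11.4% (oligodendrocyte-like) to 33.3% (precursor-like). A gene was therefore called over the carry-over bound in a class only if its level at the higher age was more than 2 times the level that RNA of all other classes, present at the share of their markers, would give. The 2 libraries shared 256 cell barcodes, and this was not compared with the number that unrelated libraries of these sizes would share. A gene counted as tested in a class with a mean of at least 20 CPM over the ages, and as past 2-fold with a ratio of CPM of at least 2 or at most 0.5.

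Every class held many genes past 2-fold in each direction. Of 7033 genes tested in excitatory-like cells, 478 were higher in adult (6.8% of genes tested) and 435 lower (6.19%), or 13% together. In inhibitory-like cells 408 of 7222 were higher (5.65%) and 438 lower (6.06%), 11.7% together, and in astrocyte-like cells 311 of 7665 were higher (4.06%) and 317 lower (4.14%), 8.19% together. Oligodendrocyte-like cells had the most, with 876 of 6875 higher (12.7%) and 914 lower (13.3%), 26% together. They numbered only 41 at P10 against 1072 in adult, so that 1 UMI at P10 is 1.73 CPM, and with the whole interval of the ratio required past 2-fold 444 and 493 genes were left. The median UMIs per cell in this class were 14052 at P10 and 4854 in adult. Scrublet marked 0% of its cells as doublets at P10 and 7.56% in adult. With cells thinned to 2000 UMIs, 2677 genes were past 2-fold in this class, and without doublet-marked cells 1752. Precursor-like cells had 413 of 8376 genes higher (4.93%) and 221 lower (2.64%), 7.57% together, and microglia-like cells 307 of 7661 higher (4.01%) and 422 lower (5.51%), 9.52% together. Among these, the carry-over bound was passed by nearly all genes in the neurons (476 and 434 in excitatory-like, 392 and 437 in inhibitory-like cells, higher and lower in adult), whereas in precursor-like cells it was passed by 117 of the 413 genes that were higher in adult. The median ratio over all genes tested was near 1 in each class, from 0.935 in precursor-like to 0.984 in excitatory-like cells. With each class scaled by the median of its ratios, precursor-like cells had 513 genes higher and 163 lower, with the estimated carry-over subtracted 94 and 769, and without doublet-marked cells 254 and 179, so the split of directions in this class rests on these choices. With carry-over subtracted, astrocyte-like cells had 205 genes higher and 432 lower and oligodendrocyte-like cells 666 and 1160, and with both libraries clustered together oligodendrocyte-like cells had 1575 and 914.

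**Figure D1:**
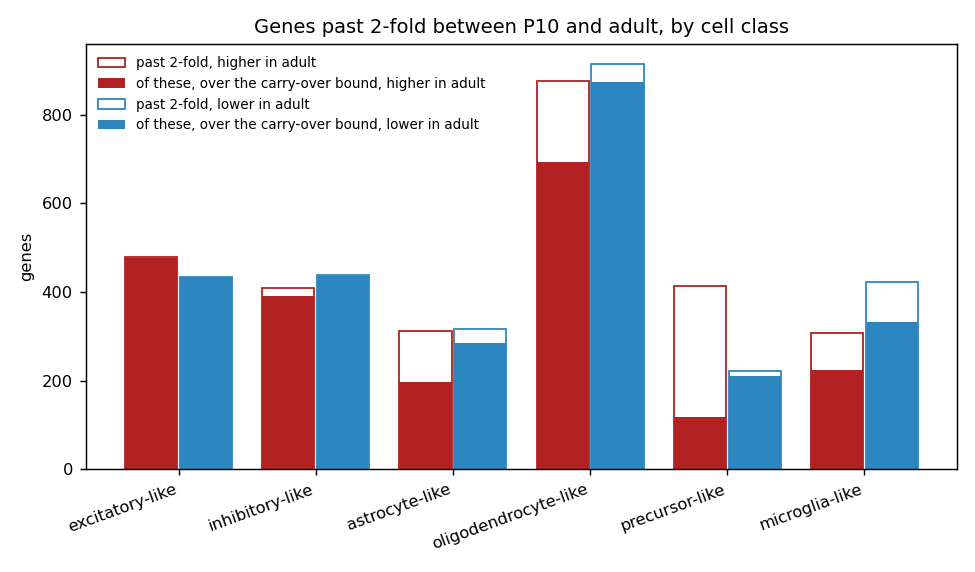
Number of genes (y axis) past 2-fold between P10 and adult in each of the 6 classes (x axis), open bars for all such genes and filled bars for those over the carry-over bound, red for genes higher and blue for genes lower in adult. Oligodendrocyte-like cells have the tallest bars (876 higher and 914 lower), and precursor-like cells the largest open part, with 117 of 413 higher genes over the bound.

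Changes found in all classes were few. Of 5008 genes with a mean of at least 20 CPM in all 6 classes, 24 were higher in adult in all 6 (0.479% of these genes) and 21 were lower in all 6 (0.419%), while 476 were higher in just 1 class and 484 lower in just 1. Genes higher in 2, 3, 4 and 5 classes numbered 128, 73, 37 and 35, and genes lower in 2, 3, 4 and 5 classes 121, 61, 39 and 26. Of the 45 genes past 2-fold in all 6 classes, 37 were at or under the carry-over bound in at least 1 class and 20 were over it in both neuron classes and in none of the others. That left 8 genes over the bound in all 6 classes, 2 of them higher and 6 lower in adult. The bound is read at the higher age, and excitatory markers in precursor-like cells stood at 33.3% in adult and 13.3% at P10. In precursor-like cells 3 of the 24 higher and 12 of the 21 lower genes passed it, so the counts of 2 and 6 do not rest on a like bound.

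The 2 shared genes higher in adult were Gm42418 and Ezh1. Ezh1 (chr11:101191115-101226463, GRCm38) encodes a histone methyltransferase of Polycomb repressive complex 2, the form that is known from non-dividing cells. At P10 and in adult it stood at 36.2 and 73.8 CPM in excitatory-like cells, 37.3 and 77.1 in inhibitory-like cells, 18.6 and 49.4 in astrocyte-like cells, 5.20 and 79.3 in oligodendrocyte-like cells, 26.9 and 56.3 in precursor-like cells, and 40.9 and 88.4 in microglia-like cells. It was higher in adult by 2.04-fold (1.97 to 2.10) in excitatory-like and by 2.66-fold (2.17 to 3.27) in astrocyte-like cells. In oligodendrocyte-like cells the ratio was 15.3-fold (5.19 to 74.3) on 3 UMIs at P10. Gm42418 (chr17:39846958-39848788) is annotated as a long intergenic non-coding RNA, and it overlaps ribosomal RNA sequence, so reads of the 2 cannot be told apart. It stood at 4069 and 13500.2 CPM in excitatory-like cells, 3768 and 13298 in inhibitory-like cells, 6662 and 20471 in astrocyte-like cells, 2160.0 and 15527 in oligodendrocyte-like cells, 5524 and 17064 in precursor-like cells, and 3608 and 13078 in microglia-like cells, between 3.07-fold higher in astrocyte-like and 7.19-fold higher in oligodendrocyte-like cells. Of the 8 shared genes, Gm42418 was over the threshold and the bound in every class compared under each of 15 alternatives, of which 1 compared only 5 classes, and Ezh1 was not under 8 of them, such as joint clustering and removal of doublet-marked cells.

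Nasp, Ide, Rbm3, Pgls and Gm47283 were among the 6 shared genes lower in adult. Nasp (chr4:116601052-116627941), a chaperone that stores histone H3 and H4, stood, at P10 and in adult, at 87.2 and 19.5 CPM in excitatory-like cells, 87.8 and 17.5 in inhibitory-like cells, 58.5 and 21.5 in astrocyte-like cells, 95.3 and 30.6 in oligodendrocyte-like cells, 132 and 54.2 in precursor-like cells, and 84.8 and 17.5 in microglia-like cells. It was highest in precursor-like cells at both ages. Rbm3 (chrX:8138975-8145880), a cold-inducible RNA-binding protein, stood at 133 and 31 CPM in excitatory-like cells, 131 and 47.1 in inhibitory-like cells, 75.7 and 33.8 in astrocyte-like cells, 132 and 37.3 in oligodendrocyte-like cells, 122 and 45 in precursor-like cells, and 276 and 77.3 in microglia-like cells, and was lower in adult by 2.24-fold (1.90 to 2.66) to 4.27-fold (4.13 to 4.42). Microglia-like cells had the highest levels of Rbm3 at both ages. Mice were anesthetized on ice, and the part of cooling in the levels of Rbm3 was not tested. Ide (chr19:37268743-37337852), the insulin-degrading enzyme, was highest in astrocyte-like cells at both ages. It stood at 204 and 44.4 CPM in excitatory-like cells, 222 and 43.3 in inhibitory-like cells, 468 and 171 in astrocyte-like cells, 243 and 85.7 in oligodendrocyte-like cells, 338 and 139.9 in precursor-like cells, and 187 and 60.3 in microglia-like cells. Pgls (chr8:71592176-71601092), an enzyme of the pentose phosphate pathway, stood at 87 and 19.9 CPM in excitatory-like cells, 80.9 and 19.5 in inhibitory-like cells, 89.8 and 29.1 in astrocyte-like cells, 84.9 and 28.9 in oligodendrocyte-like cells, 109 and 45.7 in precursor-like cells, and 154 and 67.7 in microglia-like cells, and was also highest in microglia-like cells. Gm47283, at 50.8 and 6.12 CPM in excitatory-like cells, 49.5 and 4.72 in inhibitory-like cells, 77.8 and 13.8 in astrocyte-like cells, 81.4 and 8.57 in oligodendrocyte-like cells, 102 and 19.8 in precursor-like cells, and 119 and 34.1 in microglia-like cells, was lower by 3.48-fold (2.84 to 4.28) in microglia-like to 10.5-fold (8.67 to 12.8) in inhibitory-like cells. The annotation places it on chromosome Y (chrY:90784738-90816464) while all mice were labelled female, and the source of its reads was not tested. Each of these 5 genes missed the threshold or the bound in some class under 1 or 2 alternatives. They were a minimum of 50 CPM for Gm47283 and Nasp, removal of doublet-marked cells for Nasp, joint clustering for Ide, gating of single cells by marker UMIs for Ide and Pgls, and the whole interval past 2-fold for Pgls and Rbm3.

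**Figure D2:**
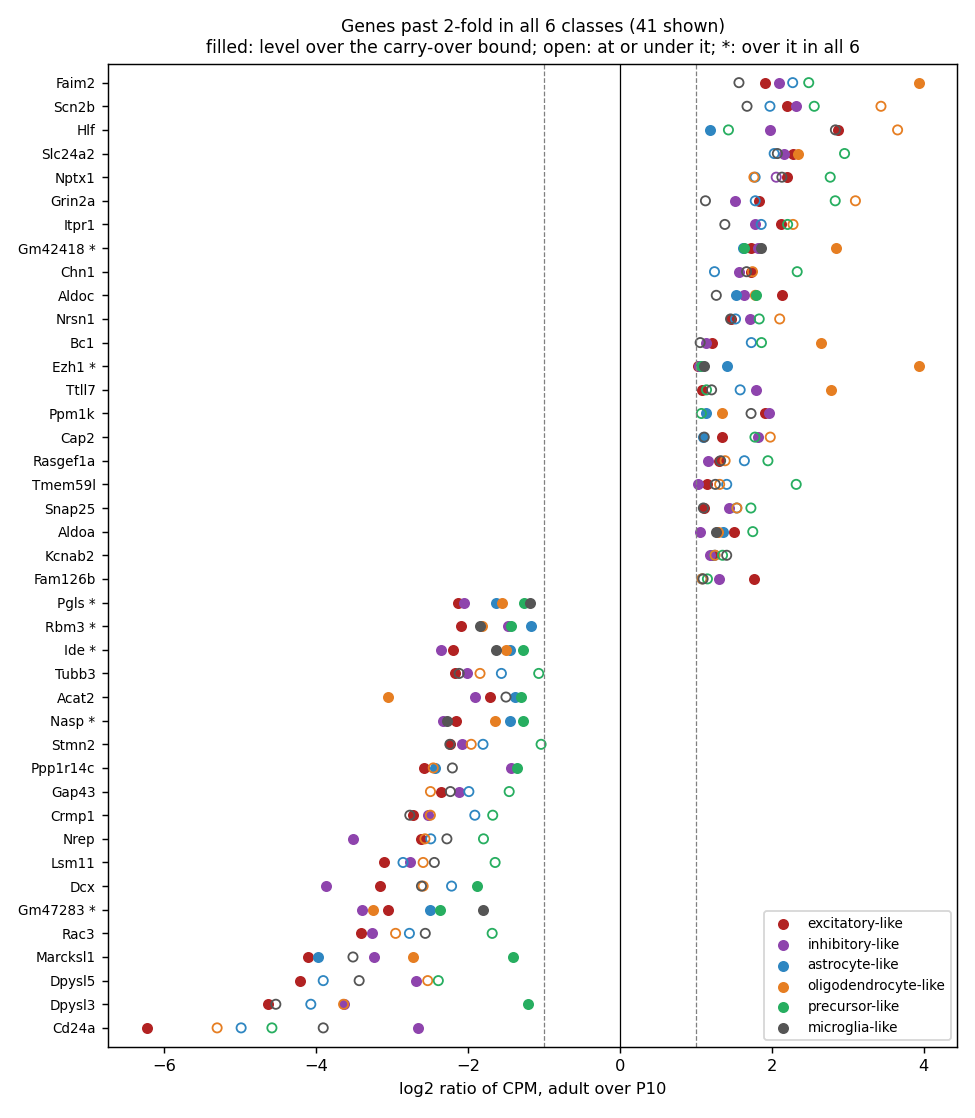
Log2 ratio of CPM, adult over P10 (x axis, dashed lines at 2-fold), of 41 of the 45 genes past 2-fold in all 6 classes (y axis), 1 point per class, filled where the level is over the carry-over bound and open where it is not. The 7 genes marked with an asterisk are filled in all 6 classes, from -3.39 for Gm47283 in inhibitory-like cells to 3.93 for Ezh1 in oligodendrocyte-like cells.

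Some of the other 37 genes are named here after their values were seen. Among those higher in adult were Scn2b (a beta subunit of sodium channels), Grin2a (an NMDA receptor subunit) and Snap25 (a protein of synaptic vesicle fusion), and among those lower were Dcx, Gap43, Stmn2, Tubb3 and Dpysl3, which act in the cytoskeleton of growing neurons. Scn2b stood at 67.1 and 308 CPM in excitatory-like cells and at 12 and 38.3 CPM in microglia-like cells, at P10 and in adult, and the expected carry-over in the latter was 11.9 and 54.5 CPM. Dcx, the microtubule protein doublecortin, stood at 436 and 48.8 CPM in excitatory-like and 78.4 and 12.8 CPM in microglia-like cells, where the expected carry-over was 85.2 and 8.78 CPM. Both were under the bound in microglia-like cells. Some of the 37 were over the bound in most classes. The glycolytic enzyme Aldoa was over it in every class but precursor-like cells, with 532 and 1363 CPM in astrocyte-like cells (2.56-fold higher in adult, 2.47 to 2.66). Marcksl1, which links actin to the membrane, was over it in every class but microglia-like cells, and the ratio went from 2.65-fold (2.47 to 2.84) lower in adult in precursor-like cells to 17.2-fold (16.9 to 17.5) lower in excitatory-like cells. Acat2, an enzyme that feeds the sterol pathway, was likewise over it in every class but microglia-like cells.

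Gene lists were then followed through the classes, naming the members with the largest ratios and some others chosen after their values were seen. Genes of cholesterol synthesis were lower in adult in many members and past 2-fold higher in none, in all 6 classes. Of 17 genes in the list, the number past 2-fold lower was 7 of 13 tested in excitatory-like, 8 of 13 in inhibitory-like, 2 of 16 in astrocyte-like, 14 of 16 in oligodendrocyte-like, 12 of 13 in precursor-like and 8 of 12 in microglia-like cells, against the 2.64% to 13.3% of all genes given above. The median log2 ratio was -1.11, -1.37, -0.78, -2.23, -1.35 and -1.16 in the same order, and stayed below 0 in each class under every alternative. In microglia-like cells only 4 of the 12 were over the carry-over bound, of which 3 were past 2-fold lower. Hmgcs1, which makes the precursor of mevalonate, stood at 984 and 249 CPM in excitatory-like cells, 591 and 198 in inhibitory-like cells, 1219 and 627 in astrocyte-like cells, 2089 and 443 in oligodendrocyte-like cells, 584 and 166 in precursor-like cells, and 220.2 and 78.3 in microglia-like cells. It was past 2-fold lower in every class but astrocyte-like cells, where it was lower by 1.94-fold (1.87 to 2.02), and it was under the carry-over bound in microglia-like cells, where the expected carry-over was 174 CPM at P10 and 51 CPM in adult. The largest ratios were those of oligodendrocyte-like cells. There, Mvd, a decarboxylase of the mevalonate branch, stood at 107 and 11.3 CPM (9.54-fold lower in adult, 6.64 to 13.7), and Lss, which closes the sterol rings, at 447 and 61 CPM (7.33-fold lower, 6.22 to 8.62). In precursor-like cells Idi1, an isomerase of the isoprenoid branch, stood at 239 CPM (225 to 254) at P10 and 37.2 CPM (30.5 to 44.9) in adult. In astrocyte-like cells Mvk, mevalonate kinase, was among the 2 members past 2-fold, at 57.5 CPM (52.5 to 63) at P10 and 25.7 CPM (21.6 to 30.3) in adult.

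The promoter of Hmgcs1 is shown because its gene was past 2-fold lower in adult in 5 classes, 4 of them over the carry-over bound, and it holds the sterol regulatory element TCACCCCAC, a binding sequence of SREBP factors. The 250 bases before the gene's start, from RefSeq (GRCm38.p6, chr13:119690101-119690350, plus strand), are printed with the element in capitals.
Hmgcs1: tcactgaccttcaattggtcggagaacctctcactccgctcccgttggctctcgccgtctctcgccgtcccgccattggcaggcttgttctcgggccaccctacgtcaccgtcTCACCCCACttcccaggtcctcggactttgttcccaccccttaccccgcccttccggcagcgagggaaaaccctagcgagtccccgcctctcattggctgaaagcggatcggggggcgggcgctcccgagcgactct
Promoters of the same length were found for 11 of the 17 list members. On either strand, the element was found in 1 of these and in 0.496% of all 32851 promoters, and the box CCAAT, a common promoter element, in 11 of 11 and in 33.8% of all promoters. These matches describe letters in the window and not binding.

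Of the genes of MHC class I presentation and the interferon response that could be tested, most were past 2-fold higher in adult in each glial class. The list holds 15 genes, of which 10 did not reach a mean of 20 CPM over the ages in astrocyte-like, oligodendrocyte-like and precursor-like cells. Past 2-fold higher were 4 of 5 tested in astrocyte-like, 4 of 5 in oligodendrocyte-like, 3 of 5 in precursor-like and 7 of 12 in microglia-like cells, against 4.06%, 12.7%, 4.93% and 4.01% of all genes tested, and none was past 2-fold lower in these 4 classes. The median log2 ratios were 1.68, 3.63, 1.09 and 1.02, and the lowest over the alternatives were 1.56, 0.00, 0.97 and 1.002, with 0.00 for oligodendrocyte-like cells without a minimum level. That 0.00 is set by a floor of 3 UMIs that stands in for a level of 0. It is the value of H2-T23, which had 0 UMIs at P10 and 31 in adult in this class. In the neurons only B2m and H2-D1 reached a mean of 20 CPM over the ages. B2m, the light chain of MHC class I, stood at 47 and 70.4 CPM in excitatory-like cells, 23.6 and 90.9 in inhibitory-like cells, 73.5 and 202 in astrocyte-like cells, 12.1 and 435 in oligodendrocyte-like cells, 133 and 283 in precursor-like cells, and 1733 and 4578 in microglia-like cells. H2-D1, a heavy chain, stood at 49 and 24.3 CPM in excitatory-like cells, 57.4 and 38.3 in inhibitory-like cells, 29 and 93.6 in astrocyte-like cells, 12.1 and 367 in oligodendrocyte-like cells, 121 and 215 in precursor-like cells, and 264 and 1765 in microglia-like cells. It was thus lower in adult in excitatory-like cells (2.01-fold, 1.93 to 2.10) and higher in astrocyte-like (3.22-fold, 2.76 to 3.78) and microglia-like cells (6.68-fold, 6.19 to 7.23). H2-K1, the other classical heavy chain, stood at 133 CPM at P10 and 969.6 CPM in adult in microglia-like and at 58.9 CPM at P10 and 188 CPM in adult in astrocyte-like cells. Its sequence is close to that of H2-D1, and how the counting divided reads between them is uncertain. In microglia-like cells Ifitm3, an interferon-induced membrane protein, stood at 5.25 and 42.5 CPM and H2-T23, a non-classical heavy chain, at 24 and 122 CPM. In precursor-like cells Ifi27, an interferon-induced gene, stood at 8.15 CPM (5.70 to 11.3) at P10 and 127 CPM (115 to 141) in adult.

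RNA of other cell types moved with these levels. In oligodendrocyte-like cells, the 6 microglia markers summed to 6.93 CPM at P10, with Csf1r, Trem2 and Fcrls at 0, and to 465 CPM in adult. The expected carry-over of H2-D1 there was 7.33 CPM at P10 and 48 CPM in adult. The 5 endothelial markers summed to 8.66 CPM at P10, with Slco1a4 and Ly6c1 at 0, and to 94.95 CPM in adult in these cells. In microglia-like cells they summed to 62.3 CPM at P10 and 281 CPM in adult, none at 0. In astrocyte-like cells the microglia markers summed to 27.7 and 85.1 CPM and the endothelial markers to 44.5 and 80.1 CPM, and in precursor-like cells the sums were 23.98 and 48.4 CPM and 34.6 and 55.6 CPM, none of them at 0. The part of either in the result was not tested.

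Promoters of 2 members are shown because they carry sequences known from MHC class I regulation. In H2-K1 the capitals mark GGGATTCCC, the core of the kappa B site, which NF-kappa B binds, and in B2m TTCNNTTTC, a core of the interferon-stimulated response element, here on the other strand. The windows are the 250 bases before the start from RefSeq (GRCm38.p6), chr17:34000348-34000597 on the minus strand for H2-K1 and chr2:122147437-122147686 on the plus strand for B2m.
H2-K1: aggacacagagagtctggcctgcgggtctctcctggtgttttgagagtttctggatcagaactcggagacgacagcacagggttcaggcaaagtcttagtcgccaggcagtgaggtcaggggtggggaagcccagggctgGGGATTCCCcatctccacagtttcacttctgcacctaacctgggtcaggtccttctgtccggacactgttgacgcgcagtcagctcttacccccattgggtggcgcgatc
B2m: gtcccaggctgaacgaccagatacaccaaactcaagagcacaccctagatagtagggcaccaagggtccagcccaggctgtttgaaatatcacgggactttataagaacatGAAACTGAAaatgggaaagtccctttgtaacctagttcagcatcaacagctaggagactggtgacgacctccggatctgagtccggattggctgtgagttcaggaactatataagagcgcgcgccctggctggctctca
On either strand, the kappa B core was found in H2-K1 and H2-D1 among the 12 list members with a promoter, and in 0.301% of all 32851 promoters of this length. The response element was found in 5 of the 12 (B2m, Bst2, H2-T23, Ifit3 and Isg15) and in 7.13% of all. None of the printed matches overlaps another motif searched.

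**Figure D3:**
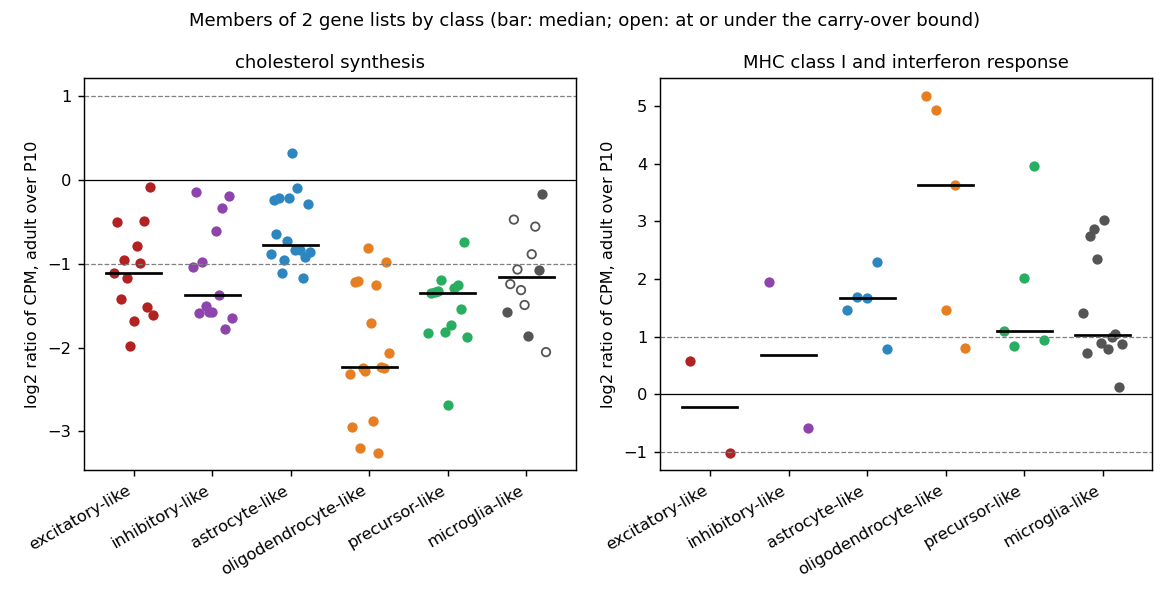
Log2 ratio of CPM, adult over P10 (y axis, dashed lines at 2-fold), of the tested members of the cholesterol synthesis list (left) and of the MHC class I and interferon list (right) in each class (x axis), 1 point per gene, open where the level is at or under the carry-over bound, with bars at the medians. The cholesterol medians lie from -2.23 in oligodendrocyte-like to -0.78 in astrocyte-like cells, and the 4 glial classes have MHC class I medians from 1.02 to 3.63.

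The growth-type cytoskeleton was the list with the median ratio farthest from 1 in both neuron classes. Of 24 genes, 18 were past 2-fold lower in adult in excitatory-like and 20 in inhibitory-like cells, against 6.19% and 6.06% of all genes tested, with median log2 ratios of -1.89 and -2.10 and no gene higher. Tubb2b, a beta-tubulin of growing neurons, stood at 1785 CPM (1778 to 1791) at P10 and 24 CPM (23.2 to 24.9) in adult in excitatory-like cells (74.3-fold lower, 71.6 to 77.1), and at 1654 CPM at P10 and 57.4 CPM in adult in inhibitory-like cells (28.8-fold lower, 27.3 to 30.4). Dpysl3, a collapsin response mediator, stood at 1979.9 and 80.2 CPM in excitatory-like and 1172 and 94.7 CPM in inhibitory-like cells. Dcx was lower by 8.93-fold (8.70 to 9.17) in excitatory-like and 14.6-fold (13.7 to 15.5) in inhibitory-like cells. The ratio of Cd24a, a glycosylated surface protein, was 74.7-fold (70.1 to 79.8) in excitatory-like and 6.32-fold (5.84 to 6.85) in inhibitory-like cells. In the glial classes 13 (astrocyte-like), 17 (oligodendrocyte-like), 11 (precursor-like) and 18 (microglia-like) of the 24 were past 2-fold lower, against 4.14%, 13.3%, 2.64% and 5.51% of all genes, but only 2, 6, 5 and 4 of these were over the carry-over bound. Marcks, a membrane-bound regulator of actin, was over it in astrocyte-like cells with 1330.2 and 179 CPM and in oligodendrocyte-like cells with 4985 and 464 CPM. In oligodendrocyte-like cells 3 of the 24 members were past 2-fold higher, near the 12.7% of all genes. The median of -1.87 there turned to 0.30 when both libraries were clustered together.

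Of the transcription factors of young neurons, a minority was past 2-fold lower in the same classes. In excitatory-like cells these were 4 of 14 list members tested, with none higher and a median log2 ratio of -0.38, and in inhibitory-like cells 4 of 16, with a median of -0.56, where 6.19% and 6.06% of all genes were lower. They were Sox4, Sox11 and Sox12, the SoxC factors of newborn neurons, and Ybx1, a protein that binds DNA and RNA. Sox4 stood at 132 CPM (129.9 to 133) at P10 and 40.6 CPM (39.5 to 41.8) in adult in excitatory-like and at 180.3 CPM (176 to 185) at P10 and 26 CPM (24 to 28.1) in adult in inhibitory-like cells. In precursor-like cells Sox11 was not past 2-fold, at 181 and 108 CPM, and Sox4 was within 2-fold in microglia-like cells, at 303 and 184 CPM. Ybx1 was lower by 5.66-fold (5.55 to 5.77) in excitatory-like, 2.26-fold (2.09 to 2.45) in astrocyte-like and 2.67-fold (2.48 to 2.87) in microglia-like cells. Oligodendrocyte-like cells had 5 of 14 members higher (12.7% of all genes), among them Nfia (19.1 and 164 CPM) and Nfix (84.9 and 426 CPM), factors of glial differentiation, and Sox4 lower (414 and 35.5 CPM).

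Among genes of high-mobility-group proteins and histones, 11 of 16 tested were past 2-fold lower in microglia-like cells (median log2 ratio -1.17), 7 of 16 in inhibitory-like and 5 of 16 in excitatory-like cells, against 5.51%, 6.06% and 6.19% of all genes. In astrocyte-like, oligodendrocyte-like and precursor-like cells 1 of 16, 1 of 14 and 2 of 17 were lower, against 4.14%, 13.3% and 2.64% of all genes. The precursor-like values leave out a dividing P10 cluster described below, while the microglia-like values include dividing P10 cells, so these 2 classes are not compared on like terms. Hmgb2, a chromatin protein that is high in dividing cells, stood at 499 CPM (473 to 527) at P10 and 39.5 CPM (33.6 to 46.1) in adult in microglia-like cells, and H2afz, a variant histone, at 593 and 157 CPM. Without the dividing microglia-like cells described below, 8 of 16 members were lower there. In neurons the leading member was Hmgb3, at 117 and 30.4 CPM in excitatory-like and 184 and 53.7 CPM in inhibitory-like cells. H2afv, another variant histone, went the other way, at 12.6 and 33.4 CPM in excitatory-like cells (2.66-fold higher in adult, 2.52 to 2.80). The list of RNA-binding and translation genes had medians from -0.76 to -0.44 over the classes, with at most 1 of 19 members past 2-fold higher and 1 to 4 lower, against 2.64% to 13.3% of all genes lower. Rbm3 led it in each class. Eif4a1, an RNA helicase of translation initiation, stood at 732 and 309.9 CPM in excitatory-like and 1157 and 395 CPM in oligodendrocyte-like cells. The share of all UMIs from ribosomal protein genes was also lower in adult in each class, from 1.64% to 1.08% in excitatory-like and from 7.04% to 5.47% in microglia-like cells.

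Genes of the circadian clock were past 2-fold higher in adult in some members of each class and lower in none. The counts were 4 of 11 tested in excitatory-like, 5 of 8 in inhibitory-like, 2 of 14 in astrocyte-like, 5 of 8 in oligodendrocyte-like, 5 of 13 in precursor-like and 3 of 7 in microglia-like cells, against 6.8%, 5.65%, 4.06%, 12.7%, 4.93% and 4.01% of all genes, and the last 3 classes had 3, 3 and 1 of these over the carry-over bound. They included output factors of the PAR bZIP family and nuclear receptors, while of the core pair Arntl was past 2-fold in no class where it was tested and Clock in inhibitory-like (37.5 and 77.1 CPM) and oligodendrocyte-like cells (29.4 and 81.2 CPM). Hlf, a PAR bZIP factor, stood at 76.7 CPM (75.4 to 78) at P10 and 562 CPM (558 to 566) in adult in excitatory-like, 62 CPM at P10 and 244 CPM in adult in inhibitory-like and 262 CPM at P10 and 597 CPM in adult in astrocyte-like cells. Dbp and Tef, of the same family, were higher in excitatory-like cells by 3.02-fold (2.89 to 3.16) and 3.19-fold (3.11 to 3.26). Nr1d1, the receptor REV-ERB alpha, stood at 174 and 384 CPM in astrocyte-like cells, and Per1, a core repressor, at 58 and 29.99 CPM there. The hour at which tissue was taken is not given in the sources used here. Immediate-early genes, which report recent activity, were higher in excitatory-like cells in 5 of 9 tested (median log2 ratio 1.18), against 6.8% of all genes, and lower in none. Arc, which acts at active synapses, stood at 11.3 CPM (10.8 to 11.8) at P10 and 94.5 CPM (92.7 to 96.2) in adult, and Egr1 at 242 CPM at P10 and 571 CPM in adult. Nr4a1 and Dusp1 were higher in excitatory-like cells by 2.94-fold and 2.67-fold. In inhibitory-like, astrocyte-like, oligodendrocyte-like, precursor-like and microglia-like cells 2 of 7, 1 of 8, 4 of 6, 2 of 6 and 2 of 7 tested were higher. Of all genes in these classes 5.65%, 4.06%, 12.7%, 4.93% and 4.01% were higher. Over the carry-over bound were 1, 0, 2, 0 and 0 of the members that were higher, and none was past 2-fold lower.

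Energy metabolism was followed with lists of glycolytic genes and of genes of the respiratory chain. Of 16 glycolytic genes, 4 were past 2-fold higher in adult in excitatory-like, 3 each in inhibitory-like, astrocyte-like and precursor-like and 2 in microglia-like cells, and none lower, against 4.01% to 6.8% of all genes higher. Over the carry-over bound were 2 of the 3 in astrocyte-like cells and 1 each in precursor-like and microglia-like cells. Oligodendrocyte-like cells had 4 of 15 higher, 1 of them over the bound, and 2 lower (12.7% and 13.3% of all genes). Aldoc, aldolase C, stood at 1767 CPM (1739 to 1797) at P10 and 5103 CPM (5043 to 5162) in adult in astrocyte-like cells, its main site, and at 9.36 and 41 CPM in excitatory-like cells. Aldoa, aldolase A, stood at 972 and 2743 CPM in excitatory-like cells, and Pfkl, a phosphofructokinase, at 31.4 and 77.9 CPM. In oligodendrocyte-like, precursor-like and microglia-like cells the medians of this list (0.01, 0.52 and 0.11) were below 0 with carry-over subtracted, the first of them under 8 of 14 alternatives. Of 22 nuclear genes of the respiratory chain, none was past 2-fold in 5 classes, against 7.57% to 26% of all genes in either direction, and 1 (Atp5j2, a subunit of ATP synthase, at 94.9 and 43.2 CPM) was lower in microglia-like cells. Heat-shock genes had 0 or 1 of 9 or 10 past 2-fold in all classes but oligodendrocyte-like cells, where 3 of 10 were higher, against 7.57% to 13% and 12.7% of all genes, led by Cryab, a small chaperone, at 34.6 and 1961 CPM.

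Lists of mixed direction were those of glucocorticoid-responsive, iron and redox, and imprinted genes. Mt1, metallothionein, was higher in adult in excitatory-like (11.8 and 33.3 CPM), inhibitory-like (14.7 and 59.8 CPM) and astrocyte-like cells (962 and 2299 CPM), while Cdkn1a, a cell cycle inhibitor, was lower in excitatory-like (95.5 and 37 CPM), inhibitory-like (63.6 and 14.5 CPM), astrocyte-like (37.6 and 9.34 CPM) and microglia-like cells (96 and 16.3 CPM). The glucocorticoid list as a whole had 2 members higher and 2 lower of 5 tested in excitatory-like cells, against 6.8% and 6.19% of all genes, and at most 2 of 7 to 9 in either direction in the other classes. There, 4.01% to 12.7% of all genes were higher and 2.64% to 13.3% lower. Of the iron and redox list, 4 of 13 members were lower in excitatory-like and 3 of 14 in inhibitory-like cells, against 6.19% and 6.06% of all genes. Ftl1, the ferritin light chain, was lower in neurons, by 3.65-fold (3.57 to 3.73) in excitatory-like and 2.996-fold (2.87 to 3.12) in inhibitory-like cells. Fth1, the heavy chain, and Trf, transferrin, were higher in oligodendrocyte-like cells, at 563 and 6524 CPM and 83.1 and 1192 CPM. Imprinted genes had 4 of 11 members higher and 3 lower in inhibitory-like cells, against 5.65% and 6.06% of all genes, and 1 of 10 in each direction in excitatory-like cells, near the 6.8% and 6.19% of all genes. Impact, a regulator of translation, stood at 107 and 379 CPM in excitatory-like and 141 and 641 CPM in inhibitory-like cells, and Meg3, a long non-coding RNA, at 1887 and 939 CPM and 3343 and 1465 CPM in these classes.

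**Figure D4:**
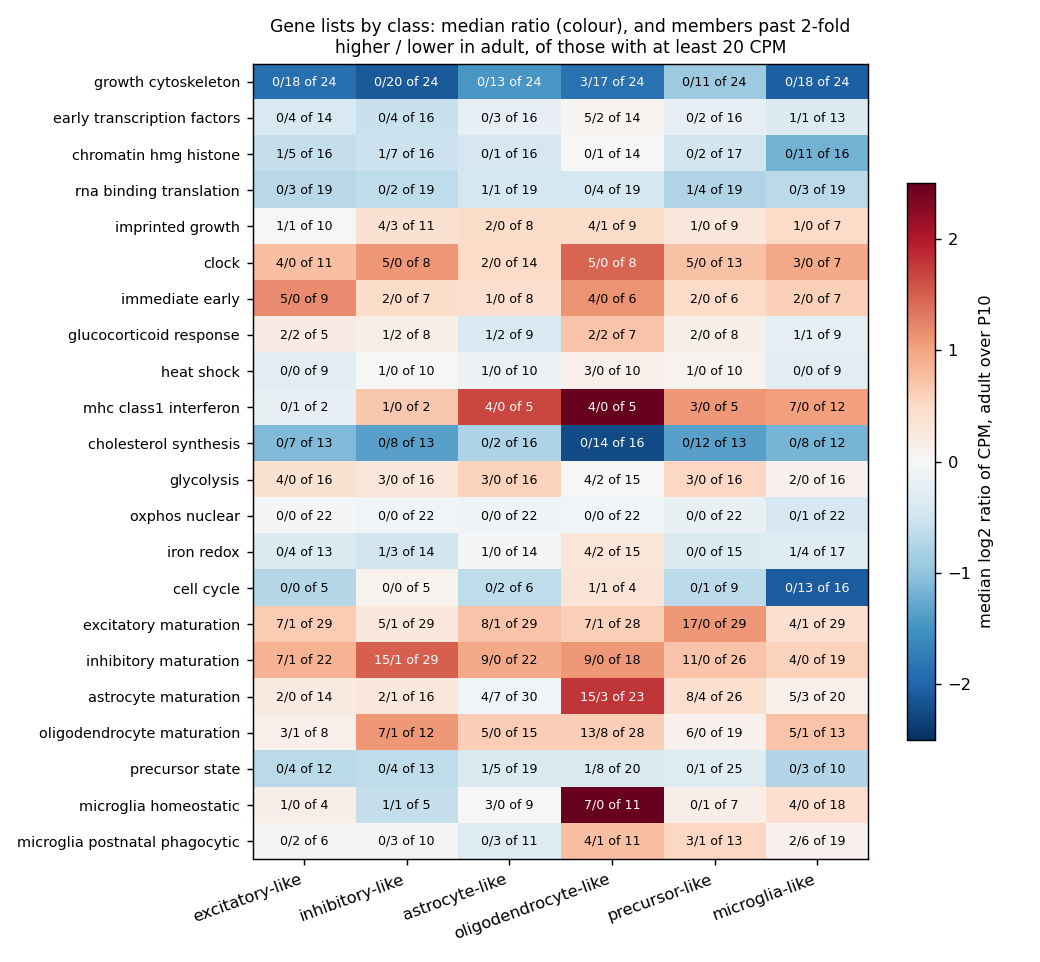
Median log2 ratio of CPM, adult over P10, of each gene list (rows) in each class (columns) as colour, with the number of members past 2-fold higher and lower in adult and the number tested in each cell. Cholesterol synthesis and the growth-type cytoskeleton have no class with a median above 0, and the MHC class I list has medians from 1.02 to 3.63 in the 4 glial classes.

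Changes limited to 1 class were counted next. Class-limited genes were taken as those with a mean of at least 50 CPM and a ratio past 3-fold in 1 class, over the carry-over bound, and with each other class either under 1.5-fold in that direction or under 20 CPM. Genes of the marker lists used in naming clusters stay in these counts, such as Mrc1 in microglia-like and Enpp6 in oligodendrocyte-like cells. They were not named as class-limited. Of 334 class-limited genes over the 6 classes, 2 were of excitatory-like cells, both lower in adult. This count rests on the treatment of carry-over, since with it subtracted 16 genes were higher and 7 lower. Cbln1, a secreted synaptic organizer, stood at 96.4 CPM (95 to 97.9) at P10 and 17 CPM (16.3 to 17.8) in adult (5.67-fold lower, 5.42 to 5.94), and Tppp3, a tubulin-binding protein, at 93.9 CPM (92.5 to 95.3) at P10 and 18.7 CPM (18 to 19.5) in adult (5.01-fold lower, 4.79 to 5.24). Cbln1 was among the leading genes of a P10 excitatory-like cluster of 893 cells. Synaptic genes of the maturation list for these cells were higher in adult in 7 of 29 and lower in 1, against 6.8% and 6.19% of all genes, with a median log2 ratio of 0.64. Grin2a, a subunit that joins NMDA receptors as synapses mature, stood at 121 CPM (119 to 122) at P10 and 429.6 CPM (426 to 433) in adult. Arpp19, a phosphoprotein that inhibits a phosphatase, and Chn1, a Rac-specific GTPase activator, were higher by 3.64-fold (3.59 to 3.69) and 3.32-fold (3.30 to 3.34). Itpka, a kinase of dendritic spines, stood at 93.7 and 212 CPM. The member that was lower was Grin3a, an NMDA receptor subunit of young synapses, at 164 and 74 CPM. Several of these genes were past 2-fold in inhibitory-like cells too, where Grin2a stood at 82.6 and 236 CPM.

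Inhibitory-like cells had 6 class-limited genes higher and 3 lower in adult, and 5 to 9 and 1 to 4 over the alternatives. Pvalb, the calcium-binding protein parvalbumin of fast-spiking interneurons, stood at 3.68 CPM (3.12 to 4.32) at P10 and 232 CPM (226 to 238) in adult, which is 63-fold (53.6 to 74.6) higher. Kcnab3, an accessory subunit of potassium channels, stood at 17.2 and 99.9 CPM, and Cox6a2, a subunit of cytochrome c oxidase, at 25.4 and 133 CPM. Pcp4l1 and Gpr83, a G protein-coupled receptor, were higher by 4.90-fold (4.69 to 5.13) and 4.23-fold (3.94 to 4.56). In excitatory-like cells Gpr83 was also higher, at 1.53 and 36.4 CPM, with a mean under the 20 CPM that the rule asks for. Lower in adult were Grm3, a metabotropic glutamate receptor (104 and 32.6 CPM), Afap1, which binds actin filaments (230.2 and 72.4 CPM), and AW551984 (151 and 48.6 CPM). The maturation list of interneurons, which holds channels, receptors and peptides, had 15 of 29 members higher and 1 lower, against 5.65% and 6.06% of all genes, with a median log2 ratio of 1.501. Potassium channels were among its largest ratios. Kcna1 stood at 18.6 and 126 CPM, Kcna2 at 103 and 523 CPM and Kcnc1 at 182 and 867 CPM. The sodium channel Scn1a was higher by 3.85-fold (3.72 to 3.99) and Vip, a peptide, by 4.08-fold (3.99 to 4.17). The make-up of the class differed between ages. Of 1966 cells at P10, 473 were in a cluster led by Sst, 722 in one led by Vip and 771 in one led by Tac1, and of 1415 in adult 469 were in one led by Sst, 327 in one led by Vip, 459 in one led by Tac1 and 160 in one led by Npy. The part of this in the ratios was not tested.

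In astrocyte-like cells 12 class-limited genes were higher and 17 lower in adult. Etnppl, an enzyme that breaks down phosphoethanolamine, went from 5 UMIs to 823, or 0.615 CPM (0.2 to 1.43) at P10 and 148 CPM (138 to 158) in adult. Prelp, a leucine-rich proteoglycan, stood at 4.43 and 258 CPM, Klhdc7a at 3.81 and 103 CPM, and Naaa, an amidase of lipid signals, at 15.1 and 228 CPM. Grin2c, an NMDA receptor subunit that astrocytes carry, was higher by 8.93-fold (7.99 to 10.003). In every other class Etnppl, Prelp and Klhdc7a were under 8 CPM at both ages and Grin2c at or under 12.9 CPM, while Naaa was also seen in microglia-like cells (81 and 46.7 CPM). Lower in adult was Slc14a2, a urea transporter, which stood at 206 CPM (196 to 216) at P10 and 0.359 CPM (0.0435 to 1.30) in adult, the latter on 2 UMIs (574-fold lower, 159 to 4745). Tnc, tenascin C of the matrix of young astrocytes, stood at 295 CPM (283 to 307) at P10 and 3.95 CPM (2.48 to 5.98) in adult. Fzd10, a Wnt receptor, Pla2g3, a secreted phospholipase, and Cybrd1, a ferric reductase, stood at 139.8 and 7.004 CPM, 159.7 and 8.98 CPM and 101 and 15.3 CPM. The maturation list was mixed, with 4 of 30 members higher and 7 lower, against 4.06% and 4.14% of all genes. Fabp7, a fatty acid-binding protein of radial glia and young astrocytes, stood at 4187 and 154 CPM, 27.1-fold (25.4 to 29.1) lower, and Id3, an inhibitor of differentiation, was lower by 6.03-fold (5.57 to 6.54), while S100b, a calcium-binding protein, was higher by 3.55-fold (3.18 to 3.96). Fabp7 was also lower in oligodendrocyte-like, precursor-like and microglia-like cells, with log2 ratios of -2.92, -2.29 and -4.76. The median log2 ratio of the list in astrocyte-like cells was -0.08 and turned to 0.01 when scaled by the median of ratios. In this class Ccnd2, a cyclin of the G1 phase, stood at 433 and 142 CPM and Cdk4 at 78.2 and 37.5 CPM.

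Oligodendrocyte-like cells held 241 of the 334 class-limited genes, 118 higher and 123 lower in adult, and 190 and 213 with cells thinned to 2000 UMIs. Anln, anillin of the myelin sheath, had 2 UMIs at P10 and Abca8a, a lipid transporter, 1. In adult they stood at 505 and 182 CPM, ratios of 146-fold (40.3 to 1205) and 105-fold (18.9 to 4162). In microglia-like cells Anln went the other way, with a log2 ratio of -3.92, since the rule bars only changes in the same direction. Ndrg1, a gene of myelinating cells, stood at 15.6 CPM (7.13 to 29.6) at P10 and 1609 CPM (1577 to 1642) in adult, Efhd1, a mitochondrial calcium-binding protein, at 3.46 and 339 CPM and Pde8a, a phosphodiesterase, at 3.46 and 296 CPM. Lower in adult were Tmem2, a hyaluronidase of the cell surface, at 1086 CPM (1003 to 1174) at P10 and 62 CPM (55.9 to 68.7) in adult, and Pik3r3, a regulatory subunit of PI3 kinase, at 1181 CPM (1094 to 1273) at P10 and 82.5 CPM (75.4 to 90.2) in adult. The protease Bace2, the homeobox factor Barx2 and Dock6, an activator of small GTPases, stood at 154 and 6.89 CPM, 100.5 and 5.71 CPM and 156 and 10.6 CPM. Of 28 tested members of the myelin maturation list, 13 were higher and 8 lower, against 12.7% and 13.3% of all genes, with a median log2 ratio of 0.61 that turned to -0.10 when both libraries were clustered together. Ptgds, a prostaglandin synthase, stood at 27.7 CPM (15.8 to 45) at P10 and 10181 CPM (10100.2 to 10262) in adult. Il33, an interleukin of mature oligodendrocytes, had no UMI at P10 and 1048 CPM in adult, at least 202-fold higher against a floor of 3 UMIs in the class at P10. Cryab stood at 34.6 and 1961 CPM, and Itpr2, an intracellular calcium channel of newly formed oligodendrocytes, at 878 and 50.6 CPM, in the opposite direction. Markers of the stage before differed between ages. The 4 markers of committed precursors summed to 3135 CPM at P10 and to 245 CPM in adult, none at 0, with Enpp6 at 1978 and 137.5 CPM and Gpr17 at 973.5 and 98 CPM, and their part in the ratios was not tested.

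Of 25 genes of the precursor state, none was past 2-fold higher and 1 lower in precursor-like cells, near the 4.93% and 2.64% of all genes tested in this class, with a median log2 ratio of -0.31 that turned to 0.16 when single cells were gated by marker UMIs, and above 0 under 2 other alternatives. The 1 gene was Sox9, a factor of neural stem cells and astrocytes, at 446 CPM (426 to 466) at P10 and 25.9 CPM (20.4 to 32.4) in adult (17.2-fold lower, 13.7 to 21.9). In astrocyte-like cells it stood at 692 and 1016 CPM. The precursor genes Fyn and Sox6 were within 2-fold, at 647 and 397 CPM and 539.6 and 339 CPM. Class-limited genes numbered 5 higher and 3 lower. They were 4 and 12 with carry-over subtracted, which turns the split, 12 and 4 with both libraries clustered together and 13 and 5 with single cells gated by marker UMIs. Gjc3, a gap junction protein of the oligodendrocyte lineage, stood at 119 CPM (109 to 129.6) at P10 and 603 CPM (576 to 632) in adult, where oligodendrocyte-like cells had 1983 and 1315 CPM and the expected carry-over in adult was 7.21 CPM. Calb2, calretinin, stood at 18.3 and 90.4 CPM, Pcdhb9, a protocadherin, at 18.3 and 85.6 CPM, Igfbp5, a binding protein of insulin-like growth factors, at 41.9 and 128 CPM and Sulf1, a sulfatase of heparan sulfate, at 25.6 and 77.1 CPM. Calb2 is also in the interneuron list, of which 11 of 26 members were higher here, against 4.93% of all genes, and 1 of these over the bound. Vip led it, with a log2 ratio of 3.57 against 2.30 for Calb2. The inhibitory markers behind the bound include neither gene, and the part of interneuron RNA in Calb2 was not tested. Besides Sox9, Lmcd1 (106 and 23.9 CPM) and the factor Dmrta1 (86.9 and 19.8 CPM) were lower. In adult, 10.9% of these cells were marked as doublets by Scrublet, against 0.183% at P10, and the 5 excitatory markers summed to 1201 CPM against 359.5 CPM, none at 0. The excitatory maturation list was past 2-fold higher in 17 of 29 genes in this class, against 4.93% of all genes, none of them over the carry-over bound, and its median of 1.08 turned to -0.79 with carry-over subtracted. A P10 cluster of 350 cells led by Top2a, Mki67 and Pdgfra met no single class and is left out of these values. In the precursor-like cells that were kept, the 5 markers of division summed to 66.5 CPM at P10 and 123 CPM in adult, none at 0, and the part of this in the ratios was not tested.

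Microglia-like cells had 16 class-limited genes higher and 29 lower in adult. The 5 largest on the lower side were genes of cell division, and that they counted as limited to this class rests on the naming of cells. Prc1 and Cenpe, proteins of the spindle and kinetochore, stood at 139.9 and 0.247 CPM and 168 and 0.988 CPM, Rrm2, a subunit of ribonucleotide reductase, at 109 and 0.247 CPM and Ccna2, cyclin A2, at 158 and 0.988 CPM. Pclaf, a partner of the replication clamp, stood at 183 CPM at P10 with no UMI in adult, at least 247-fold lower against a floor of 3 UMIs in the adult class. Of 16 cell cycle genes in the list, 13 were past 2-fold lower in this class, against 5.51% of all genes (median log2 ratio -2.08). At P10, 80 of 662 microglia-like cells (12.1%) were in a subcluster of dividing cells led by Cx3cr1 and Mki67. It held 73.5% of the UMIs of Prc1 in the class, 78.6% of Cenpe, 70.6% of Ccna2, 45% of Pclaf and 29% of Rrm2. Adult microglia-like cells formed 1 cluster, in which single dividing cells would not be counted, and the 5 markers of division summed to 1490 CPM at P10 and 5.19 CPM in adult, none at 0. Without that subcluster, as an alternative chosen after the data were seen, the 5 genes stood at 42.3 CPM (Cenpe) to 118 CPM (Pclaf) at P10, and 11 of 14 cell cycle genes tested were past 2-fold lower (median log2 ratio -1.67). Class-limited genes were then 16 higher and 16 lower, with Pclaf the 1 of the 5 genes among them. Those lower numbered 7 with clusters at resolution 1.0, 5 with both libraries clustered together and 6 with single cells gated by marker UMIs, and none of the 5 genes was among them. Under these 3 settings the 5 genes were also lower in adult in precursor-like cells. Prc1 stood there at 104 CPM at P10 and 24.3 CPM in adult at resolution 1.0, against 3.62 and 24.6 CPM as reported, without the dividing P10 cluster described above. Higher in adult were Mlph, melanophilin (6.001 and 101 CPM), Lag3, an inhibitory immune receptor, at 24.4 CPM (18.8 to 31.1) at P10 and 296 CPM (279.6 to 313) in adult (12.1-fold higher, 9.46 to 15.8), and Tns1, tensin (15 and 155 CPM). Cd74, the invariant chain of MHC class II, stood at 10.1 and 95.1 CPM, and Srgn, serglycin of secretory granules, at 24.8 and 199 CPM.

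Of 18 genes of the homeostatic state, 4 were past 2-fold higher in adult microglia-like cells and none lower, against 4.01% and 5.51% of all genes, with a median log2 ratio of 0.43. Cst3, the protease inhibitor cystatin C, stood at 8324 CPM (8215 to 8435) at P10 and 36177 CPM (35992 to 36363) in adult, Ctss, cathepsin S, at 2924 CPM at P10 and 8653 CPM in adult, Csf3r, a cytokine receptor, at 119 and 406 CPM and Selplg, a selectin ligand, at 784 and 1909 CPM. Tmem119, often used to tell microglia from other macrophages, was within 2-fold at 639 and 972 CPM. Genes of the phagocytic state of early postnatal microglia were mixed, with 2 of 19 higher and 6 lower, against the same shares of all genes. Lpl, lipoprotein lipase, stood at 199 and 10.9 CPM, lower by 18.3-fold (13.5 to 25.5). Dab2, an endocytic adaptor, stood at 294 and 24.7 CPM, lower by 11.9-fold (9.66 to 14.8). Fabp5, a fatty acid-binding protein that was under the carry-over bound, was lower by 4.67-fold (3.80 to 5.77), while Lyz2, lysozyme, was higher by 5.98-fold (5.26 to 6.82), at 98.3 and 588 CPM. Of the 5 markers of border macrophages, Mrc1 stood at 623 and 32.4 CPM, while the other 4 together made up the rest of a sum of 637.6 CPM at P10 and 35.3 CPM in adult, none at 0.

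**Figure D5:**
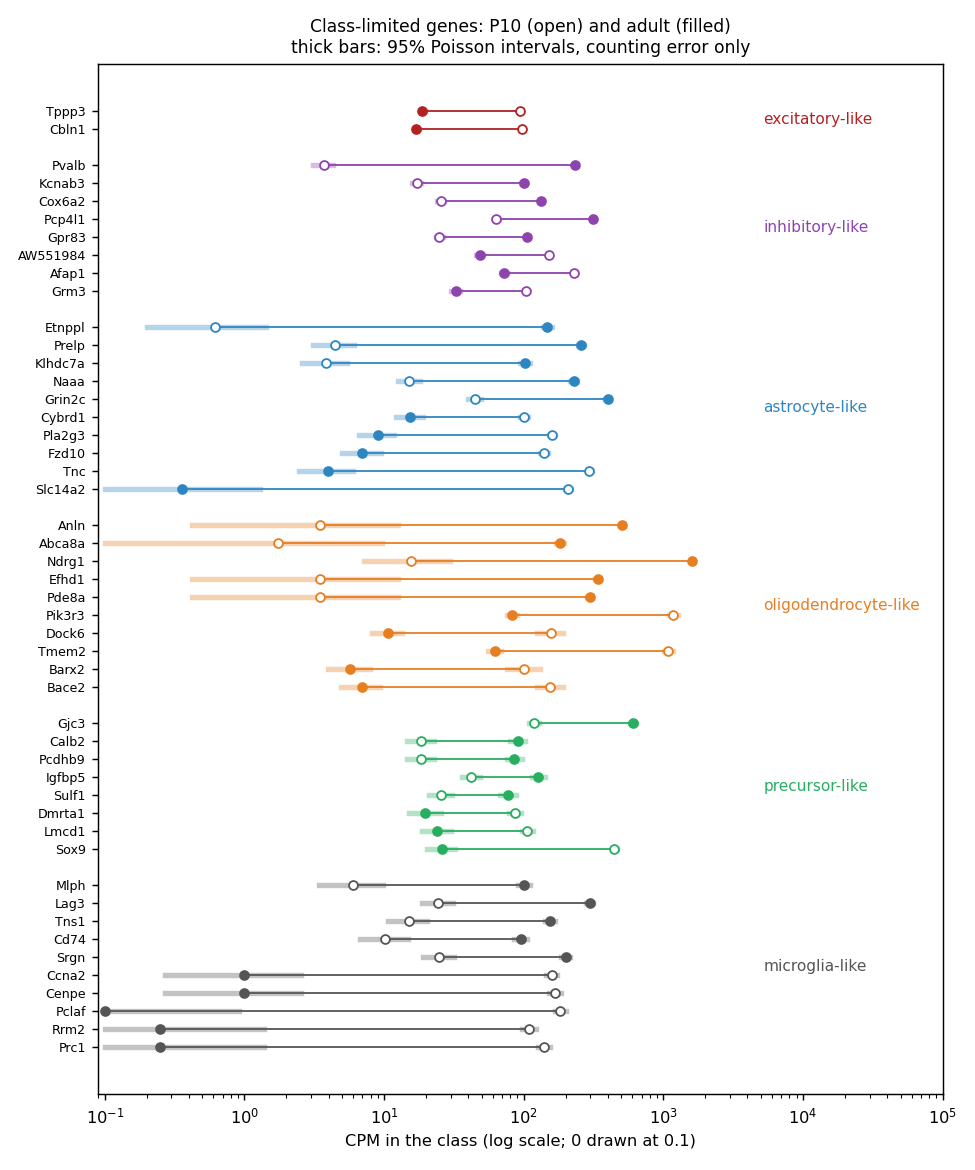
CPM in the class (x axis, log scale, values and interval ends under 0.1 drawn at 0.1) at P10 (open points) and in adult (filled points) of the class-limited genes named for each class (y axis, coloured by class), with thick bars for 95% Poisson intervals. The 5 microglia-like genes that were lower were not limited to that class under other namings of cells. The ratios go from 3.02-fold for Sulf1 in precursor-like cells to 574-fold for Slc14a2 in astrocyte-like cells.

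Between the extremes of shared and class-limited genes, a few sets were counted after the data were seen. All were taken among the 5008 genes with a mean of at least 20 CPM in all 6 classes. Past 2-fold and over the carry-over bound in both neuron classes and under 1.5-fold in that direction in the 4 glial classes, 10 genes were higher, among them Mpp5 and Man1c1, and 8 lower, among them Cat (catalase) and Meg3. No gene was past 2-fold and over the bound in the 4 glial classes and under 1.5-fold in that direction in both neuron classes. Apoe, the main lipid carrier of the brain, was the 1 gene higher and over the bound in both oligodendrocyte-like and precursor-like cells and under 1.5-fold higher in the other 4. Its log2 ratios in oligodendrocyte-like and precursor-like cells were 3.40 and 2.01. From P10 to adult, the share of astrocyte markers went from 1.33% to 3.25% in oligodendrocyte-like and from 0.793% to 1.76% in precursor-like cells. That of microglia markers went from 0.0208% to 2.17% and from 0.161% to 0.241%. The part of either in the ratios of Apoe was not tested. Arhgap35 and Msmo1, an enzyme of sterol synthesis, were the 2 genes lower and over the bound in oligodendrocyte-like and precursor-like cells and under 1.5-fold lower in the others. In addition, 52 of the 5008 genes were past 2-fold in opposite directions in different classes and over the carry-over bound in both. In 49 of these 52 the oligodendrocyte-like class was on 1 side, with 29 genes higher there and lower in another class and 20 the other way round. Among the other 5 classes 4 genes were opposite, namely Gas6, H2-D1, H2afv and Ntrk3.

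Examples chosen after their values were seen show the size of the opposite changes. Mbp, myelin basic protein, stood at 45.4 and 103 CPM in excitatory-like cells, 32.7 and 98.8 in inhibitory-like cells, 14.6 and 194 in astrocyte-like cells, 19416 and 8535 in oligodendrocyte-like cells, 53.2 and 302 in precursor-like cells, and 32.3 and 211 in microglia-like cells, at P10 and in adult. It was thus lower in adult within oligodendrocyte-like cells (2.27-fold, 2.23 to 2.32) and higher in every other class. Beside it, the sum of the 5 oligodendrocyte markers also rose from P10 to adult in every other class. It went from 2.83 to 136.8 CPM in astrocyte-like, 22.5 (Mog at 0) to 168 in microglia-like and 17.9 to 162 in precursor-like cells. In inhibitory-like and excitatory-like cells it went from 9.06 to 96.3 and from 3.21 to 36.4 CPM. Mbp was over the carry-over bound in every class but inhibitory-like cells, and the part of this RNA in its ratios was not tested. Gatm, an enzyme of creatine synthesis, stood at 896 and 3351 CPM in oligodendrocyte-like cells and 151 and 20.3 CPM in excitatory-like cells, higher in adult by 3.74-fold (3.43 to 4.09) and lower by 7.44-fold (7.14 to 7.76). Stmn4, a stathmin that binds tubulin, stood at 126 and 826 CPM and 644 and 320.0 CPM in these classes, and Inpp5f, a phosphatase of phosphoinositides, at 32.9 and 219 CPM and 242 and 55.5 CPM. In the other direction, Pdk2, a kinase that restrains pyruvate dehydrogenase, stood at 352 and 127 CPM in oligodendrocyte-like cells, and at 32.1 and 131 CPM in excitatory-like and 129 and 277 CPM in astrocyte-like cells.

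The classes also took different shares of the cells recovered after dissociation, which need not be those of the tissue. At P10 and in adult, excitatory-like cells made up 49% (48.2 to 49.7%) and 47.5% (46.6 to 48.3%), inhibitory-like cells 12.9% (12.3 to 13.4%) and 10.04% (9.55 to 10.6%) and astrocyte-like cells 13% (12.5 to 13.6%) and 12.1% (11.6 to 12.7%). Oligodendrocyte-like cells made up 0.268% (0.193 to 0.364%) and 7.61% (7.18 to 8.06%). Precursor-like cells were 7.15% (6.75 to 7.57%) and 3.70% (3.39 to 4.02%) and microglia-like cells 4.33% (4.02 to 4.67%) and 7.55% (7.12 to 7.99%). Clusters that mixed markers of more than 1 class, or met none, are not in these shares.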

How the data were processed

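PFC cells of female C57BL/6J mice at P10 and P84 were compared, with 1 library per age. The authors deposited raw UMI counts per cell and gene for each age, made with the BD Rhapsody whole transcriptome pipeline, version 1.8 per the file headers for both libraries, on GRCm38 with GENCODE vM19. These counts were neither normalized nor filtered beyond the cell calling of the pipeline, and all values were whole numbers. The libraries of the other ages were read for their cell numbers only.

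Cells passed with 1000 or more UMIs and genes, if mitochondrial genes took no more than 15% of their UMIs. In each library, 2000 variable genes and 30 principal components were used for Leiden clustering at resolution 0.5 (scanpy 1.11.5, igraph 0.11.9), doublets were marked with Scrublet at an expected rate of 0.06 but kept, and clusters were named from the levels of marker lists. The limits for naming were set after the clusters had been seen, and clusters with markers of several classes were left out. UMIs were summed per class and age and scaled to CPM without mitochondrial and ribosomal protein genes (numpy 2.4.6, pandas 2.3.3). With 1 library per age there was no model and no p-value. Intervals are exact Poisson for levels, exact binomial for shares and conditional binomial for ratios (scipy 1.17.1), at 95%, and a level of 0 was set to a floor of 3 UMIs of the class at that age for a ratio. Expected carry-over in a class is the sum over the other classes of a gene's level there times the median share of that class's markers. The calculation was tested on simulated counts.

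The members and lists were chosen with earlier results of these data known. Named genes were all shared genes over the carry-over bound, up to 5 class-limited genes per direction and class without class markers, and up to 4 members of a list with the largest ratios, and all others named were chosen after their values were seen. Alternatives changed the scaling, the minimum level, the weight and depth of cells, the counting error, the carry-over, doublets, the cell filter and the naming of cells, 1 at a time, and leaving out the dividing microglia-like or the oligodendrocyte-like cells was added after the data were seen. Gene positions are from GENCODE M21 and promoters from RefSeq on GRCm38.p6, which held 12 of 15 MHC class I and interferon genes and 11 of 17 cholesterol genes. A few genes are not reported here, in the text or in the plot of shared genes, but stay in all counts and medians.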

Additional observations from a re-analysis of the deposited data

How the results depend on the processing

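With 1 library per age, no alternative could address the spread between animals. In the 41 P10 oligodendrocyte-like cells 1 UMI is 1.73 CPM, so counting error there can move genes near the threshold across it. No paired analysis was possible because there is 1 library per age and no value comes from a test. Of 579 pairs of a named gene and a class, between 352 (cells thinned to 2000 UMIs) and 573 (mitochondrial and ribosomal genes kept) kept their value within the counting interval. Carry-over subtraction moved 206 of them. Counts of genes past 2-fold moved by over 1.5 times under the settings below. The minimum level sets how many genes are compared, and for the other settings the cause was not tested. With a minimum of 50 CPM they were 540 in excitatory-like, 496 in inhibitory-like, 341 in astrocyte-like, 1024 in oligodendrocyte-like, 344 in precursor-like and 323 in microglia-like cells, with 12 higher and 11 lower in all 6. Without a minimum level they were 9468, 6992, 5668, 8291, 4089 and 4455, with 88 higher and 103 lower in all 6. This setting admits genes with a level of 0, whose ratio is set by the floor and the UMIs of the class. Igf2 had 0 UMIs at both ages in oligodendrocyte-like cells and a ratio, adult over P10, of 0.097. In inhibitory-like cells Igf2 had 1 UMI at P10 and 0 in adult, and a ratio of 5.06. The counts without a minimum level therefore cannot tell how many genes changed. With the whole interval past 2-fold, 413 were left in astrocyte-like, 937 in oligodendrocyte-like, 349 in precursor-like and 397 in microglia-like cells, and 10 higher in all 6. With carry-over subtracted, 1 was higher and 7 were lower in all 6 classes. Genes higher in all 6 numbered 15 without doublet-marked cells and 14 with single cells assigned by marker UMIs, and genes lower in all 6 numbered 9 with both libraries clustered together. Without oligodendrocyte-like cells, 93 class-limited genes were left, and 34 genes were higher and 27 lower in the other 5 classes. In sign, Gria2, an AMPA receptor subunit of the excitatory list, in oligodendrocyte-like cells turned from a log2 ratio of -1.27 to 1.99 with both libraries clustered together, and Slco1c1, a thyroid hormone transporter of the astrocyte list, in microglia-like cells from 1.25 to -0.34 without doublet-marked cells, -0.86 at resolution 1.0 and -0.11 with both libraries clustered together.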
